A study of Mus musculus with 3 samples.

Results

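Mouse genes whose symbol begins with Nduf encode the nuclear-encoded subunits of mitochondrial respiratory complex I and 8 of its Ndufaf assembly factors. They were compared between brown adipose tissue of Ad-Lkb1 mice, in which liver kinase B1 (Lkb1, symbol Stk11) was deleted, and of wild-type littermates. Of the 54 such symbols in the RefSeq gene table, 46 had a probe that was kept on every array, 38 of them subunits and 8 Ndufaf factors. They stand among 19328 tested genes and unnamed features, of which 13126 had a symbol. The other 8 symbols had no probe matched by accession: Ndufb1, Ndufb4b and Ndufb4c are annotated as protein coding, and Ndufa11b, Ndufa12-ps, Ndufab1-ps, Ndufs5-ps and Ndufs6b as pseudogenes. The genes that share a base name with these copies, Ndufb4, Ndufa11, Ndufa12, Ndufab1, Ndufs5 and Ndufs6, were kept. Whether the probes of these 6 genes also detect a copy was not analysed here. All 53 kept Nduf probes were well above background in both dyes on all 3 arrays.

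The study hybridised 3 two-colour Agilent arrays on 1 slide, each carrying whole brown adipose tissue RNA of 1 Ad-Lkb1 sample in Cy5 and of 1 wild-type littermate sample in Cy3 (3 biological replicates per genotype). All mice were males of 10 weeks on regular chow, with the strain given as C57BL/6J for Ad-Lkb1 and C57BL/6 for wild type. The labels do not name the promoter that drove the deletion or the cells it reached. No array had the dyes exchanged, so genotype, dye and strain label cannot be told apart. In whole tissue, fewer cells of a type and less RNA per cell cannot be told apart either.

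Complex I is the largest enzyme of the respiratory chain: it oxidises NADH, passes the electrons through a flavin and a chain of iron-sulfur clusters to ubiquinone, and pumps protons across the inner mitochondrial membrane. An N module binds NADH, a Q module reduces ubiquinone, and a membrane arm with a proximal and a distal part moves the protons. Assembly factors join the modules or modify subunits but leave the finished enzyme. In brown adipocytes the respiratory chain is abundant, and uncoupling protein 1 (Ucp1) lets the proton gradient run down as heat.

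The labels were checked on Stk11 first. Its log2 ratio, Ad-Lkb1 over wild type, was -1.26, -1.17 and -1.17 on the 3 arrays, and it fell with a mean of -1.20 (SE 0.069, n = 3 arrays, limma adjusted p = 0.0105); with only the other two arrays the adjusted p was 0.124 without array 1 and 0.0872 without array 2. Where its probe lies relative to the deleted sequence was not analysed here. Brown adipocyte markers were present in both genotypes, with Ucp1 at a log2 ratio of 1.48 (limma adjusted p = 0.0114). In the alternative runs Ucp1 lay between 0.80 and 1.54. Of the 10 markers 5 rose and none fell. The ratios of 8 lay above 0, while those of Plin1 (-0.26) and Adipoq (-0.13) lay below 0 without passing. The 10 markers had summed linear intensities of 510504 to 555602 in Ad-Lkb1 and 308463 to 353247 in wild type. The summed linear intensity of 12 macrophage markers was 14013 to 16840 in Ad-Lkb1 and 3373 to 7162 in wild type, and 7 of the 12 rose. Of 6 fibroblast markers 5 rose, with sums of 23531 to 29665 in Ad-Lkb1 and 12379 to 14956 in wild type. Of 6 neutrophil markers 4 were kept (not Ly6g and Mpo) and 2 rose, with sums of 6835 to 11144.5 in Ad-Lkb1 and 5825 to 9509 in wild type. Of 6 endothelial markers 1 fell, with sums of 2874 to 4256 in Ad-Lkb1 and 3794 to 4555 in wild type. Skeletal muscle markers had sums of 3924 to 25921 in Ad-Lkb1 and 3468 to 22424 in wild type, with 8 of 12 kept (not Ckm, Myh1, Myh2 and Actn3), and no marker passed. The part of these cell types in the complex I results was not tested. The ratios of the arrays correlated across features at r = 0.73 (arrays 1 and 2), 0.36 (arrays 1 and 3) and 0.50 (arrays 2 and 3). Across all features 1681, or 8.70%, passed an adjusted p of 0.05 in limma's moderated test, 923 higher and 758 lower; without array 1 or without array 2 no feature passed, and without array 3 2077 did.

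The complex I genes had small ratios between the genotypes. None of the 38 subunits and 1 of the 8 Ndufaf factors passed the threshold, against 8.70% of all features; 11 subunits had an unadjusted limma p under 0.05 (7 higher, 4 lower in Ad-Lkb1), or 28.9% against 29.3% of all features. Every one of the 46 genes had a log2 ratio closer to 0 than 0.5, as did 89.0% of all features. The subunit ratios ran from -0.32 to 0.40 with a median of 0.09 and quartiles of -0.079 and 0.18. The median over all features was -0.0099. With the arrays centred on their medians in place of the loess fit, that median of all features moved to -0.42, and the ratios of all 38 subunits then lay below 0. In that fit 23 subunits and 7 Ndufaf factors were called, all lower, among 52.2% of all features called and 50.2% called lower. The subunit median was then -0.60, which is 0.18 below that of all features, whereas with loess it was 0.10 above. The sign of the subunit median thus depends on the normalization, and it was also below 0 on the scanner software's processed signals (-0.11), on the deposited log ratios (-0.11), without background subtraction (-0.010) and with a smaller offset added after background correction (-0.013).

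**Figure D1:**
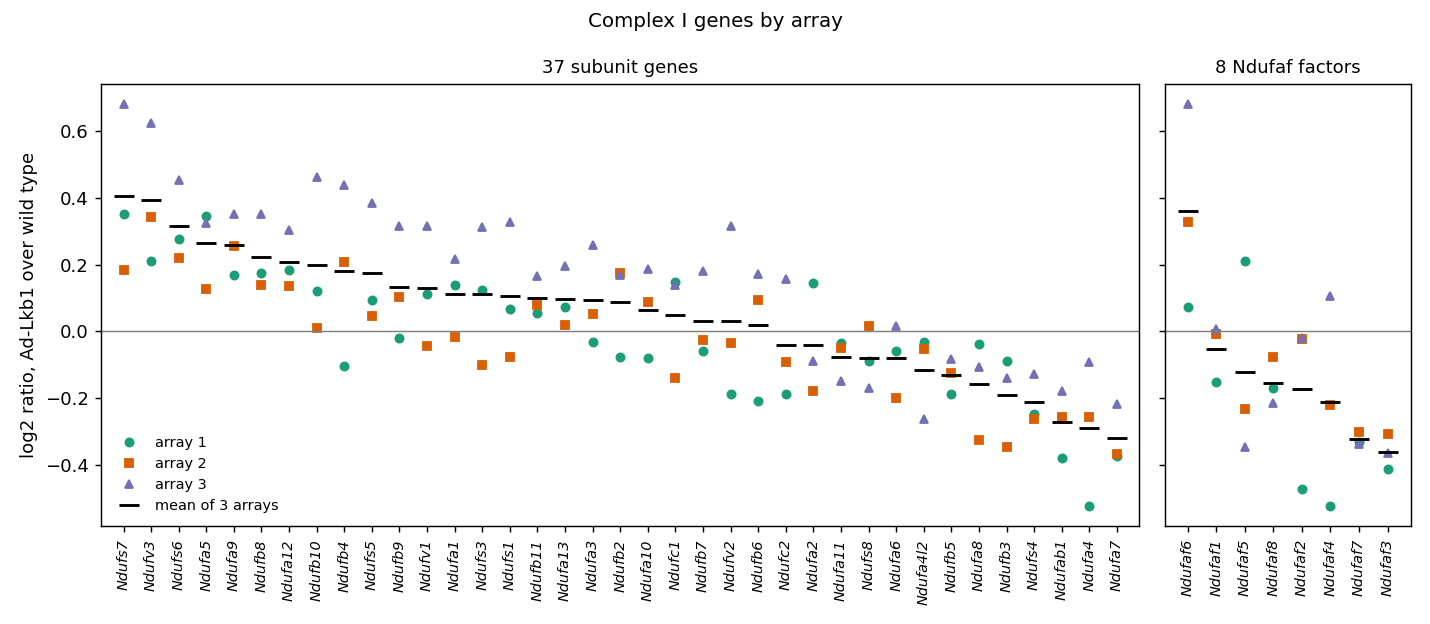
Log2 ratio, Ad-Lkb1 to wild type, (vertical axis) for 45 of the 46 complex I genes (horizontal axis, sorted by mean), with 1 symbol per array and a black bar at the mean of the 3 arrays; subunits are on the left and Ndufaf factors on the right. Subunit means run from 0.40 to -0.32 and 7 of 8 Ndufaf means lie below 0; with median centring all 46 means lie below 0.

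The sign of the ratio differed between arrays for many subunits, and about as often for features at large. Of the 38 subunits, 11 were above 0 on all 3 arrays, where 24.0% of all features were. Another 9 were below 0 on all 3, where 27.7% of all features were. The other 18 had mixed signs, as had 9317 of the 19328 features, while 51.8% of all features had 1 sign throughout. The median over subunits was -0.025 on array 1, -0.021 on array 2 and 0.18 on array 3. Array 3 gave the highest of the 3 ratios for 28 subunits (73.7%), against 34.1% of all features. On that array the summed macrophage markers were 1.96-fold as high in Ad-Lkb1 as in wild type, against 3.91-fold on array 1 and 4.99-fold on array 2. The summed muscle markers of Ad-Lkb1 over wild type were 0.175-fold, 3.94-fold and 7.47-fold on arrays 1, 2 and 3. Without array 3 the subunit median was 0.0081.

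The normalized levels of the genotypes can also be set side by side for each gene. The 3 Ad-Lkb1 levels did not overlap the 3 wild-type levels for 15 of 38 subunits (39.5%) and 4 of 8 Ndufaf factors, against 36.3% of all features. Ad-Lkb1 was above wild type for 10 of the 38 subunits, where it was for 17.7% of all features. These were Ndufs7, Ndufv3, Ndufs6, Ndufa5, Ndufa9, Ndufb8, Ndufa12, Ndufb10, Ndufs5 and Ndufa13. Ad-Lkb1 was below wild type for 5 of the 38, where it was for 18.6% of all features. These were Ndufa7, Ndufa4, Ndufab1, Ndufs4 and Ndufb3. The levels follow the loess fit, and with median centring the ratios of all 38 subunits lay below 0.

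The Q module, which takes the electrons to ubiquinone, had the highest median of the 4 modules as processed here. Its 6 genes had a median log2 ratio of 0.24, with array medians of 0.26, 0.072 and 0.32, and none passed; with median centring the module's median was -0.46. Ndufs7, a core subunit that carries the last iron-sulfur cluster before ubiquinone, had normalized log2 levels of 15.30, 15.19 and 15.38 in Ad-Lkb1 and 14.94, 15.01 and 14.70 in wild type. All Ad-Lkb1 levels lay above all wild-type levels, by most on array 3. Its log2 ratio of 0.40 (0.35, 0.18 and 0.68 by array, SE 0.12) was the highest of the 46 genes and did not pass (limma adjusted p = 0.107); with median centring it was -0.28. Ndufa5, an accessory subunit of this module, had 0.26 with its brighter probe (limma adjusted p = 0.116) and -0.089 with its dimmer one. With a gene's probes averaged Ndufa5 had 0.088 and the module's median was 0.17. Ndufa9, which binds a nicotinamide nucleotide, had 0.26 (limma adjusted p = 0.105).

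The N module had a median of 0.069 over 10 genes and held both the second highest and the lowest subunit ratio. Ndufv3, an accessory subunit next to the flavin-binding Ndufv1, had log2 levels of 14.80, 14.98 and 15.37 in Ad-Lkb1 and 14.59, 14.63 and 14.75 in wild type with its brighter probe. The groups did not overlap, and Ad-Lkb1 was higher on each array. The log2 ratio was 0.39 (SE 0.10, limma adjusted p = 0.0911) and became -0.30 with median centring. Ndufs6, a zinc-binding accessory subunit added late in assembly, had levels of 15.43, 15.34 and 15.47 in Ad-Lkb1 and 15.16, 15.12 and 15.02 in wild type. These groups did not overlap either, with a log2 ratio of 0.32 (0.28, 0.22 and 0.45 by array, SE 0.080, limma adjusted p = 0.0847) that became -0.37 with median centring.

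In the same module Ndufa7, an accessory subunit, had log2 levels of 14.30, 14.34 and 14.45 in Ad-Lkb1 and 14.67, 14.71 and 14.67 in wild type. Every Ad-Lkb1 level lay below every wild-type level, and the log2 ratio of -0.32 (SE 0.074) had the smallest p of the subunits without passing (limma adjusted p = 0.0715). It stayed below 0 in every alternative run, between -1.01 and -0.29. Ndufs4, whose loss in mice causes a Leigh-like encephalopathy, had -0.25, -0.26 and -0.13 by array (mean -0.21, limma adjusted p = 0.138). Ndufv2, a core subunit with an iron-sulfur cluster, had -0.19, -0.035 and 0.32 by array and was among the 3 subunits with the largest SD; its mean of 0.031 became -0.11 without array 3.

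**Figure D2:**
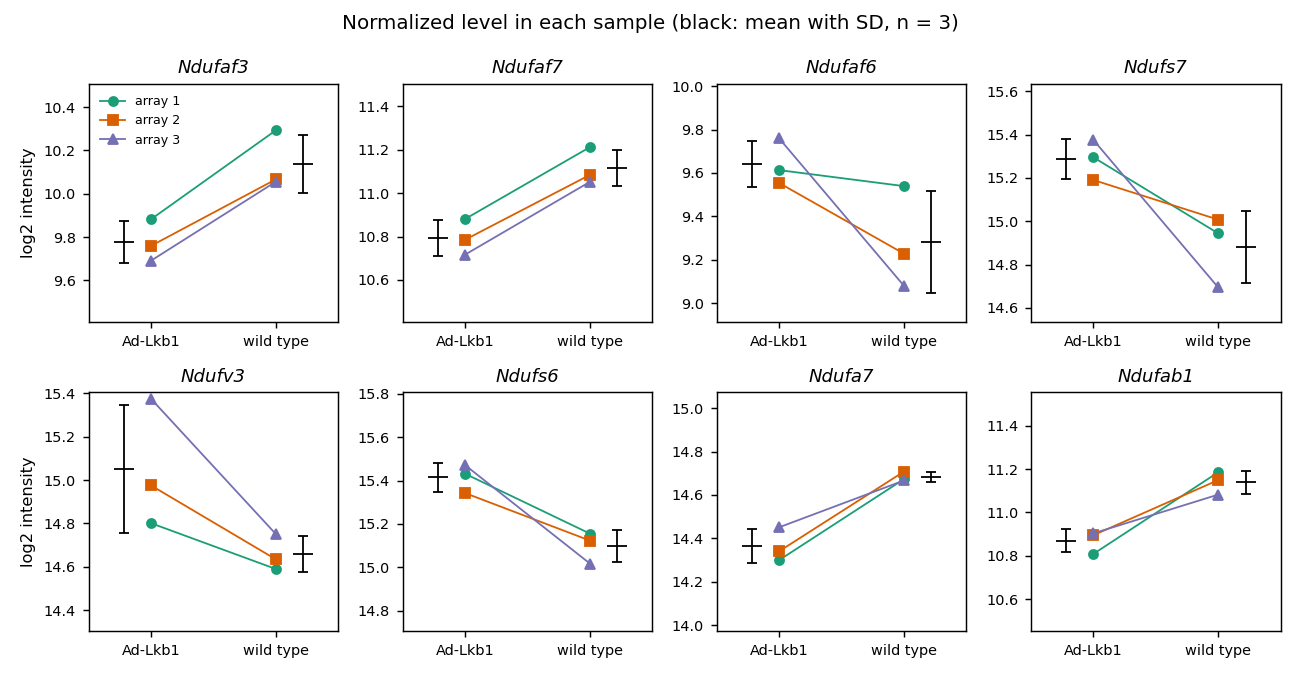
Normalized log2 intensity (vertical axis, each panel spanning the same range) of 8 complex I genes in each sample, Ad-Lkb1 on the left and wild type on the right of each panel, with a line joining the samples of 1 array and black bars for the mean with SD (n = 3). All 8 are among the 15 subunits and 4 Ndufaf factors whose levels do not overlap between the genotypes, so their separation is no separate result. Levels do not overlap for 36.3% of all features. Of the 8 genes only Ndufaf3 passed the test.

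The membrane arm was close to 0 as processed here, whereas with median centring its proximal and distal parts had medians of -0.63 and -0.61. The 9 kept genes of its proximal part had a median log2 ratio of 0.066, between -0.16 for Ndufa8, a subunit facing the intermembrane space, and 0.17. The 11 kept genes of its distal part had a median of 0.089 and none passed. Ndufab1, the mitochondrial acyl carrier protein, which also serves fatty acid synthesis and iron-sulfur cluster assembly, had log2 levels of 10.81, 10.89 and 10.90 in Ad-Lkb1 and 11.18, 11.15 and 11.08 in wild type. The groups did not overlap, and its log2 ratio of -0.27 (SE 0.076) was the lowest of the membrane arm (limma adjusted p = 0.102). Ndufb3 had -0.19 (limma adjusted p = 0.218). Ndufb4 had -0.10, 0.21 and 0.44 by array, a spread larger than its mean of 0.18.

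Ndufa4 and Ndufa4l2 carry the Nduf name, although the Ndufa4 protein is now placed in cytochrome c oxidase (complex IV). Ndufa4 had ratios of -0.52, -0.26 and -0.090 by array, with a mean of -0.29 (limma adjusted p = 0.161). Ndufa4l2, a paralog induced by hypoxia, had the dimmest probe of the subunits when each gene was taken by its brightest probe, and a mean of -0.12 (limma adjusted p = 0.421). By class, the 7 core subunits, which are conserved from bacteria, had a median of 0.11 and the 29 accessory subunits one of 0.089, and no gene of either class passed. The subunits encoded by mitochondrial DNA were not analysed here, since none of the 7 was matched to a probe.

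The median of the Ndufaf factors lay below that of the subunits. It was -0.16 on the log2 scale, with array medians of -0.25, -0.15 and -0.12, and 7 of 8 were below 0 where 47.7% of all features were above 0. Ndufaf3, which works with Ndufaf4 on the early Q module intermediate, had log2 levels of 9.88, 9.76 and 9.69 in Ad-Lkb1 and 10.29, 10.07 and 10.06 in wild type. Every Ad-Lkb1 level was below every wild-type level, with similar ratios of -0.41, -0.31 and -0.36. Ndufaf3 fell by 0.36 on the log2 scale (SE 0.068, limma adjusted p = 0.0493), the 1 call among the 46 genes, where 3.92% of all features were called lower. The call was lost on the processed signals (limma adjusted p = 0.174), on the deposited log ratios (0.175), without background subtraction (0.118), with the smaller offset (0.130), with probes well above background in both dyes (0.0524) and without array 1 (0.191), 2 (0.201) or 3 (0.0933). Its ratio lay between -1.06 and -0.30 in all of these and the other alternatives.

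The promoter of Ndufaf3, the gene that passed, and that of Ndufs6, a subunit whose promoter held the letters of the NRF1 and YY1 cores, are shown with any motif match in capitals. Each runs 5′ to 3′ over 300 bases, from 250 before to 50 after the RefSeq start on GRCm38.p6. Ndufaf3 lies at chr9:108567387-108567686 and Ndufs6 at chr13:73328433-73328732, both on the minus strand.
Ndufaf3: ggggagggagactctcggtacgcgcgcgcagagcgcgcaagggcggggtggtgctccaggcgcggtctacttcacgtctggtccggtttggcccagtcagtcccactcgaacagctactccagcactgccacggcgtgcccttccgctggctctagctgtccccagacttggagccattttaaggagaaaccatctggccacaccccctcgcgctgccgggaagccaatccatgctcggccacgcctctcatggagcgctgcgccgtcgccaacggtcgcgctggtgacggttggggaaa
Ndufs6: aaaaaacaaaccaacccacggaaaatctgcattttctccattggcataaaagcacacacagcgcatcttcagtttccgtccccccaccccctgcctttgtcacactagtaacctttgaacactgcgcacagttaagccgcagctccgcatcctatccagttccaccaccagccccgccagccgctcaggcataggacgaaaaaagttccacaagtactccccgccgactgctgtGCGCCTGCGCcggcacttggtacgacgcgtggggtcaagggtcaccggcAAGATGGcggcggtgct
The capitals in Ndufs6 mark a match to the NRF1 core (GCGCA, any base, then GCGC) on the reverse strand, just before the start, and one to the YY1 core AAGATGG after it. Both strands were searched for 4 motifs bound by known regulators of respiratory genes, and a promoter was available for 40 of the 46 genes. The NRF1 core was in 9 of the 40 (22.5%), against 4.60% of 32851 RefSeq promoters of the same length. AAGATGG was in 8 (20.0% against 6.34%), the GABP/ETS core CCGGAAG in 6 (15.0% against 8.86%) and the oestrogen-related receptor core AAGGTCA in 3 (7.50% against 4.72%). The letters AAG that end CCGGAAG can also begin AAGATGG or AAGGTCA, so these matches can overlap. The 32851 promoters were not matched to the 40 for base content or expression. The 9 genes with the NRF1 core had a median log2 ratio of -0.077, and the other genes with a promoter one of 0.032. The 8 with AAGATGG had 0.16, and the others -0.010. For CCGGAAG the medians were -0.016 in the 6 genes with a match and 0.058 in the others. For AAGGTCA they were 0.17 in the 3 genes with a match and 0.020 in the others. None of these differences was tested, and a match to letters is not a measured site.

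The other Ndufaf factors did not pass. Ndufaf7, a mitochondrial arginine methyltransferase, had log2 levels of 10.88, 10.79 and 10.72 in Ad-Lkb1 and 11.21, 11.08 and 11.05 in wild type. The ratios of -0.33, -0.30 and -0.34 had the smallest SD of the Ndufaf genes (0.020), with a mean of -0.32 and a limma adjusted p of 0.0566; with no filter on dim probes it passed too, where 1.34% of features were called lower. Ndufaf4 had ratios of -0.52, -0.22 and 0.11 with a mean of -0.21 (limma adjusted p = 0.380). Ndufaf2, a paralog of Ndufa12 that acts late in assembly, had -0.47, -0.023 and -0.021, so that its mean of -0.17 came mostly from array 1. Ndufaf5, which in human cells hydroxylates an arginine of the Ndufs7 protein, had 0.21, -0.23 and -0.35 with a mean of -0.12. Its partner Ndufaf8 was lower in Ad-Lkb1 on each array, with a mean of -0.15 (limma adjusted p = 0.239). Ndufaf1, a member of the membrane-arm assembly complex, had a mean of -0.051.

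Ndufaf6 was the exception in sign. Its log2 levels were 9.61, 9.55 and 9.76 in Ad-Lkb1 and 9.54, 9.23 and 9.08 in wild type, so the groups did not overlap. The ratios of 0.074, 0.33 and 0.68 differed several-fold between arrays, with a mean of 0.36 (SE 0.13, limma adjusted p = 0.165). With median centring it was -0.33, above the other 7 Ndufaf ratios.

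The median of the subunits minus that of the Ndufaf factors was 0.25, and 0.23, 0.13 and 0.30 by array (SD 0.087, n = 3). It was above 0 in each alternative run, between 0.087 on the processed signals and 0.31 without array 2. The subunit probes were much brighter, with a median mean log2 intensity of 14.6, than the Ndufaf probes at 10.2; brightness does not compare the genes' RNA levels, since probes differ in efficiency. Across the 46 genes the log2 ratio and the probe's brightness had Pearson's r = 0.47 and Spearman's rho = 0.59, and across all 19328 features r = -0.014 and rho = -0.11. These correlations are over genes of the same 3 arrays, which are not independent replicates.

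Set against other features of like brightness, both groups of complex I genes lay slightly low. At a mean log2 intensity of 14 and over, 27 subunits had a median ratio of 0.11 and 484 other features one of 0.21, and 20 of the 27 were below that median. At 12 to 14, 8 subunits had a median of -0.078 and 1115 other features one of 0.023. At 10 to 12, 4 Ndufaf factors had -0.19 and the 2 subunits there, Ndufab1 and Ndufa8, had -0.21, against -0.085 for 2405 other features. Under 10, the 4 other Ndufaf factors had -0.14 and Ndufa4l2 had -0.12, against -0.0092 for 15278 other features. In these brightness ranges the subunits were thus 0.094 to 0.13 and the Ndufaf factors 0.11 to 0.13 below the other features, and none of these differences was tested. The value of 0.13 for subunits rests on the 2 genes at 10 to 12. The quartiles of the other features were 0.033 and 0.46 at 14 and over, and -0.17 and 0.22 at 12 to 14. They were -0.29 and 0.14 at 10 to 12, and -0.14 and 0.12 under 10.

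**Figure D3:**
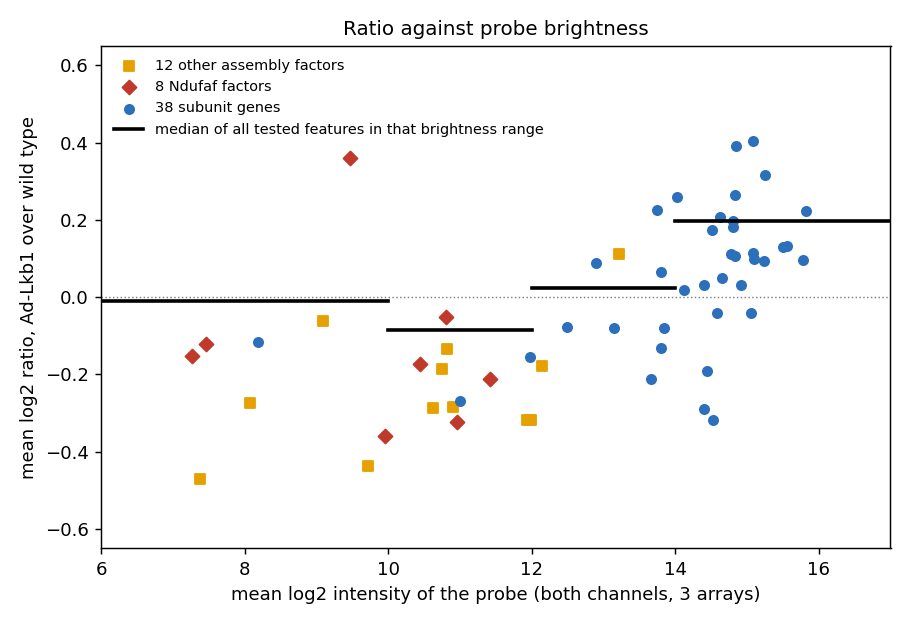
Mean log2 ratio, Ad-Lkb1 to wild type, (vertical axis) against the probe's mean log2 intensity (horizontal axis) for subunits (circles), Ndufaf factors (diamonds) and other assembly factors (squares), with black lines at the median of all tested features in 4 ranges of brightness. That median is 0.20 at 14 and over, where 27 subunits lie, and -0.085 at 10 to 12; with median centring the medians of all 4 ranges lie below 0.

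The other known assembly factors lay on the same side as the Ndufaf genes. Of 13 listed, 12 were kept (not Coa1) and none passed. Among them 11 were below 0, where 47.7% of all features were above 0. On all 3 arrays 9 were below 0, where 27.7% of all features were. Their median log2 ratio was -0.28, and 7 had an unadjusted limma p under 0.05, all lower, where 15.0% of all features were. Their median stayed below 0 in each alternative run, between -0.91 and -0.21. The median mean log2 intensity of their probes was 10.8. At 10 to 12, the 2405 features outside the Nduf genes had a median ratio of -0.085 and quartiles of -0.29 and 0.14. These factors were not compared by brightness range. Sfxn4, a sideroflexin needed for complex I assembly, had -0.63, -0.25 and -0.53 by array (mean -0.47, limma adjusted p = 0.0612). Nubpl, an iron-sulfur protein of complex I assembly, had -0.71, -0.27 and -0.33 (mean -0.44, limma adjusted p = 0.0852). Aifm1, the apoptosis-inducing factor, which helps mitochondrial protein import, had -0.28, -0.45 and -0.22 (mean -0.32, limma adjusted p = 0.0837). Ecsit, a partner of Ndufaf1, was the 1 gene above 0, at 0.11.

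Several subunits and 1 factor were measured by 2 probes. How often the 2 probes of a gene differ in sign across all features was not analysed here. Of the 7 complex I genes with 2 kept probes, 5 had mean ratios of opposite sign. Ndufv3 differed most: its brighter probe had 0.21, 0.34 and 0.62 on the 3 arrays, and its dimmer probe, read at a mean log2 intensity of 11.4, had -0.25, -0.44 and -0.25. The probes were thus of opposite sign on every array, with means of 0.39 and -0.32. Neither passed when each probe was tested on its own (limma adjusted p = 0.0886 and 0.0783), where 8.73% of 25031 probes did. Ndufv3 is known in mammals to have a short and a long isoform that differ by 1 exon, and the transcript that each probe detects was not analysed here. With both probes averaged Ndufv3 had 0.038.

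Ndufb11, a subunit of the distal arm, had a mean of 0.10 with its brighter probe and -0.30 with its dimmer one. These 2 probes were read at mean log2 intensities of 15.1 and 7.42. Ndufa5 had 0.26 and -0.089 with its brighter and dimmer probe. For Ndufb5 the order was the other way, with -0.13 for the brighter and 0.20 for the dimmer probe. For these 4 genes the order of the probes was the same on all 3 arrays. Ndufaf4 had -0.21 and 0.054, an order that turned on array 3. In Ndufb4 and Ndufb6 the 2 probes differed by 0.062 and 0.043.

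**Figure D4:**
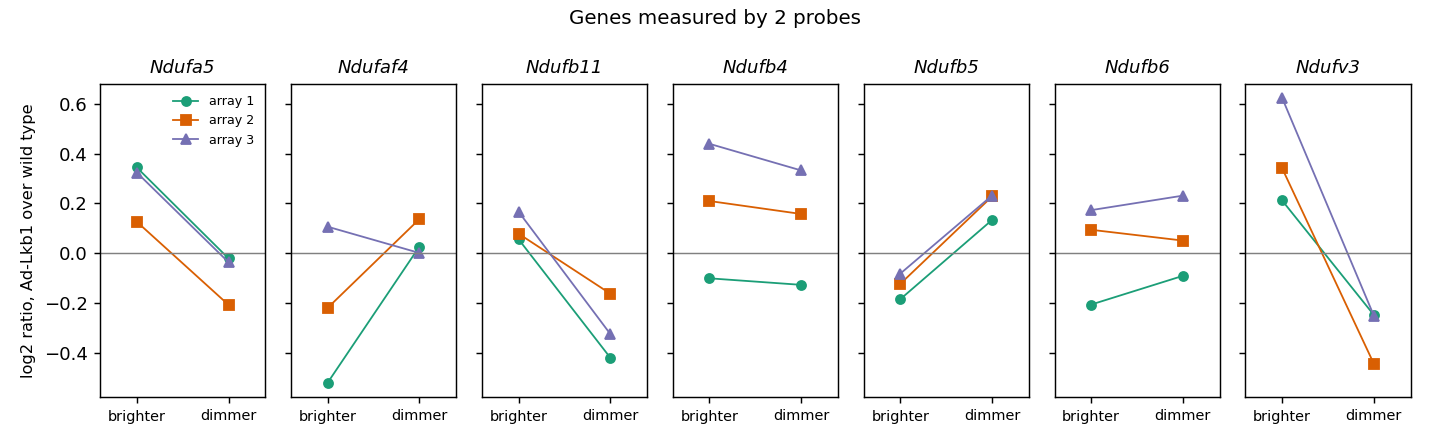
Log2 ratio, Ad-Lkb1 to wild type, (vertical axis) on each array for the brighter and the dimmer probe (horizontal axis) of the 7 complex I genes with 2 kept probes, with a line joining the probes of 1 array. In Ndufv3 the brighter probe lies at 0.21 to 0.62 and the dimmer at -0.44 to -0.25; in Ndufb4 and Ndufb6 the 2 probes nearly coincide.

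In the remaining respiratory complexes some genes rose. Of 42 listed subunits of complexes II to V, 8 rose and none fell, where 4.78% of all features rose. Their probes were bright, with a median mean log2 intensity of 15.0. At an intensity of 14 and over, 73 of the 484 features outside the Nduf genes rose and 13 fell. The median log2 ratio of the 42 subunits was 0.23 and became -0.45 with median centring. Atp5b, the catalytic beta subunit of ATP synthase, had 1.13, 0.83 and 1.14 by array (mean 1.03, limma adjusted p = 0.0164). Sdhb, the iron-sulfur subunit of succinate dehydrogenase, had 0.95, 0.81 and 0.99 with its brightest probe (mean 0.92, limma adjusted p = 0.0139). With its kept probes averaged Sdhb had 0.59 (limma adjusted p = 0.0258), and these probes were not analysed one by one here. Cox7a1, a cytochrome c oxidase subunit of muscle and brown fat, had 0.81, 0.87 and 1.21 (mean 0.96, limma adjusted p = 0.0218). Each of these exceeded the highest complex I ratio of 0.40, and each lost its call without array 1, without array 2, on the processed signals and deposited log ratios, and with median centring, where Atp5b had 0.35, Cox7a1 0.28 and Sdhb 0.23. The difference between complex I and the other complexes was not tested as such.

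Of 14 regulators of nuclear genes for respiration, none passed and the median was -0.00014. Ppargc1b, a coactivator of mitochondrial biogenesis, had the smallest p, with -0.28, -0.62 and -0.32 by array (mean -0.40, limma adjusted p = 0.0772). Tfam, which packages and transcribes mitochondrial DNA, had a mean of -0.25 (limma adjusted p = 0.101) and Esrrb, an oestrogen-related receptor, one of 0.27 (limma adjusted p = 0.115). Of the 14, 4 had an unadjusted limma p under 0.05, or 28.6% against 29.3% of all features.

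**Figure D5:**
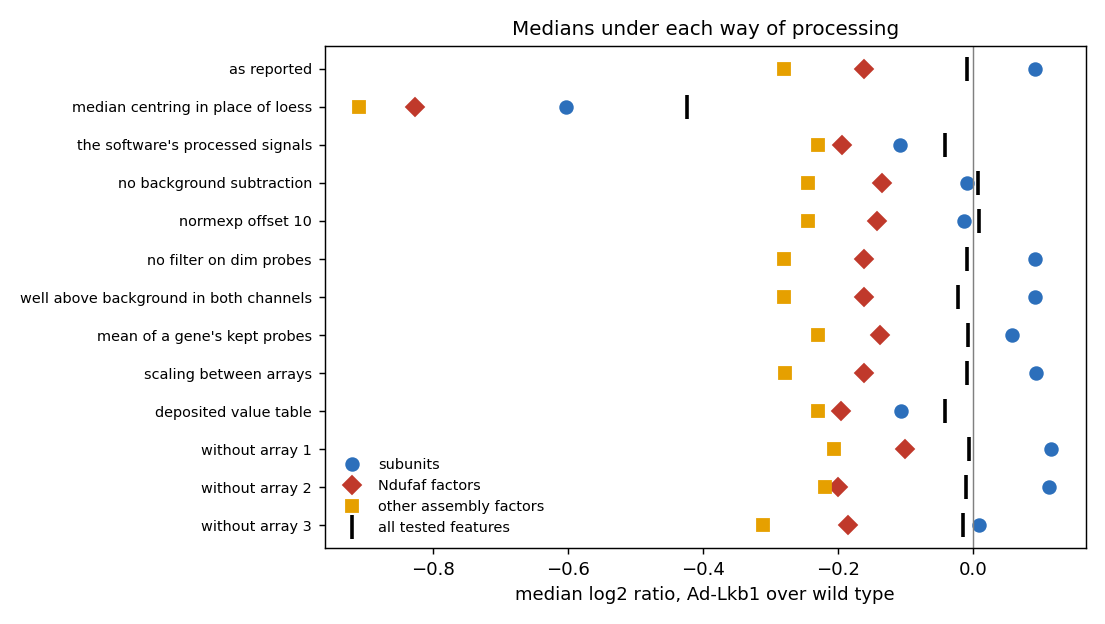
Median log2 ratio, Ad-Lkb1 to wild type, (horizontal axis) under each way of processing (rows) for subunits, Ndufaf factors, other assembly factors and all tested features. The subunit median lies above that of the Ndufaf factors in every row, and lies on both sides of 0 across the rows, at -0.60 with median centring and 0.11 without array 1.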

How the data were processed

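Intensities were deposited as Agilent Feature Extraction 11.5 output, per the submitters' processing notes, and hold median spot and background intensities per the file headers. The authors' deposited value table holds log10 ratios that matched the software's processed signals, red (Ad-Lkb1) over green, with a median of 0 on each array. Median red (Ad-Lkb1) and green (wild-type) intensities were 21 to 23 and 51 to 53.5 over backgrounds of 17 and 43 to 44, no spot was saturated, and only 3 arrays limit the precision.

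With limma 3.58.1 (R 4.3.3), intensities were corrected by normexp (offset 50), normalized by loess within arrays and tested by lmFit and eBayes with Benjamini-Hochberg adjustment over 19328 features; the ratio within an array pairs the littermates. Levels are channel intensities after Aquantile. Of 55678 non-control probes, 25031 were well above background in at least 1 dye on all arrays. The brightest probe stood for a gene. RefSeq accessions gave 28019 probes 1 symbol, and promoters come from RefSeq on GRCm38.p6.

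Members and lists were chosen with earlier results of these data known. Named were Stk11, Ucp1, each Ndufaf gene, the 6 highest and 6 lowest subunits, the 4 with the smallest p, the 3 with the largest SD, members whose probes disagree in sign, and up to 3 genes of each other list by p. The other genes named were chosen after their values were seen. A member that the rule names is not reported by itself here. The test was also run on simulated data with independent noise at each spot and no added variation between tissue samples. The outcome of that run is not reported here.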

Additional observations from a re-analysis of the deposited data

How the results depend on the processing

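The reported test is already paired, because each array holds 1 littermate of each genotype and its ratio is the pair. No replicate block was left to add. In place of loess, median centring called 10097 features, 23 subunits and 7 Ndufaf factors, all of these members lower where 50.2% of features were, and gave medians of -0.603 (subunits), -0.826 (Ndufaf), -0.578 (core), -0.623 (N), -0.456 (Q), -0.633 (proximal), -0.614 (distal), -0.909 (other factors), -0.453 (complexes II to V) and -0.529 (regulators). It turned the sign of Ndufs7 (-0.282), Ndufv3 (-0.295), Ndufs6 (-0.369), Ndufa5 (-0.426), Ndufa9 (-0.439), Ndufb4 (-0.506), Ndufb11 (-0.588), Ndufv2 (-0.661), Ndufaf6 (-0.327) and Esrrb (-0.00438). The processed signals called 808 features and no Ndufaf factor. Their subunit median was -0.108 (core -0.108, N -0.158, Q 0.0724, proximal -0.0759, distal -0.108), the subunit minus Ndufaf difference was 0.087, complexes II to V had -0.00808 and regulators -0.0601. Ndufaf1 (0.0558), Ndufb11 (-0.116), Ndufb4 (-0.0581) and Ndufv2 (-0.221) turned sign. The deposited log ratios called 806 features and no Ndufaf factor. They gave -0.107 for subunits (core -0.108, N -0.158, Q 0.072, proximal -0.0763, distal -0.108), a difference of 0.0897, 0.00303 for complexes II to V and -0.0602 for regulators, with Ndufaf1 at 0.055, Ndufb11 at -0.118, Ndufb4 at -0.0591 and Ndufv2 at -0.222. Without background subtraction no Ndufaf factor was called, the difference was 0.126 and the regulators' median -0.0405, with Ndufb11 at -0.00449 and Ndufv2 at -0.0443. An offset of 10 called no Ndufaf factor and gave 0.13 and 0.061, with Ndufb11 at -0.00755 and Ndufv2 at -0.0472. With no filter on dim probes 1033 features and 2 Ndufaf factors were called, and with probes well above background in both dyes no Ndufaf factor. Averaging a gene's probes turned Ndufb11 (-0.102) and Ndufb5 (0.0332). Leaving out 1 array in turn gave 0 to 2077 calls, 0 Ndufaf calls, Stk11 at -1.22 to -1.17, a regulators' median of -0.122 to -0.00623, and Ndufv2 at -0.111 to 0.140, below 0 without array 3. Among the 46 members the sign turned in 26 with median centring, 19 with processed signals, 19 with the deposited log ratios, 7 without background subtraction, 7 with the offset of 10 and none with scaling between arrays. Chosen after seeing the data, testing each probe on its own called 2186 of 25031 probes, and leaving out Ndufa4 and Ndufa4l2 gave a subunit median of 0.094 and a difference of 0.26. The causes of these changes were not tested, except that leaving out an array leaves 2.

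The limits are few arrays on 1 slide, dim spots, 1 dye orientation, whole tissue, and more than 1 probe for only 7 of the 46 genes.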
